A study of Rattus norvegicus with 9 samples.

Results

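The cluster of miR-221 and miR-222 is a pair of miRNA genes, Mir221 and Mir222, whose hairpins each give a 5p and a 3p mature strand. Its members were taken as every row of the deposited table that bears either miRNA's number, whatever the arm, which gave 4 of 633 listed mature rat miRNAs. These were rno-miR-221-3p, rno-miR-221-5p, rno-miR-222-3p and rno-miR-222-5p, written below without the species prefix, and 3 of the 4 had enough counts to enter the model of all miRNAs, as did 469 of the 633. The cluster was proposed with levels from these same libraries in view, among them the lower miR-221-3p in MK-801+CLO than in VEH. Levels and fold changes of its members between groups are therefore given as a description, without a p-value.

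The libraries are small RNA of frozen rat hippocampus, 9 in all and 3 per group. Every rat was Sprague-Dawley. The labels list the age as postnatal day 21 and say that drugs began after 14 days of habituation, at 5 weeks and 120 to 140 g. VEH rats received intraperitoneal saline for 14 and then 7 days. MK-801 rats received MK-801 (dizocilpine), which blocks NMDA receptors for glutamate, at 0.2 mg/kg once a day for 14 days and then saline for 7 days. MK-801+CLO rats had the same MK-801 course, followed by 7 days at 10 mg/kg of what the group name and the study design give as clozapine (CLO), an atypical antipsychotic. The groups thus share handling and injections, and both drug groups carry the MK-801 course, so that no group received clozapine alone. Each group had 10 rats. Which rats a library holds is not given in the labels, so the spread between libraries may be in part technical.

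A miRNA finds its targets mainly through its seed, bases 2 to 8 from the 5′ end, which pairs with sites in messenger RNAs and lowers their output. The 3p strands of miR-221 and miR-222 are best known as regulators of proliferation: they repress the cell-cycle inhibitor Cdkn1b (p27Kip1) and, in endothelium, the receptor Kit. They are found in endothelium and vascular smooth muscle, where they act in growth and remodelling of vessels, and they also occur in neural tissue.

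The mature sequences are printed because the pair is defined by its shared seed. They are RefSeq's, with the GRCr8 assembly as build, written 5′ to 3′ with bases 2 to 8 in capitals.
miR-221-3p: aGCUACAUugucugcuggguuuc
miR-222-3p: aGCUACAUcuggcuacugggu
miR-221-5p: aCCUGGCAuacaauguagauuuc
miR-222-5p: gGCUCAGUagccaguguagau
The sequences deposited beside the counts were identical to these for all 4 members. The 3p strands were identical from base 1 to base 8 and differed from base 9 on, with 11 of 21 aligned positions identical and 10 different. After base 8 their longest shared run was cugggu, 6 bases long and at different positions. Reads of near full length from one 3p strand are therefore distinct from those of the other. The shared seed GCUACAU pairs with the site AUGUAGC, or AUGUAGCA with the adenosine that often follows it, and no other of the 633 listed miRNAs carried this seed. The 5p strands share no base at their 5′ end and have different seeds, CCUGGCA and GCUCAGU. Their longest shared run, uguagau of 7 bases, lies toward the 3′ end, the part that faces the 3p seed in the folded hairpin.

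The hairpins show how the strands lie in their precursors, with the mature 5p and 3p strands in capitals.
Mir222: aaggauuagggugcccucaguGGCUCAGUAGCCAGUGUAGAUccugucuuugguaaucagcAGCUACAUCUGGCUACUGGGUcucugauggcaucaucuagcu
Mir221: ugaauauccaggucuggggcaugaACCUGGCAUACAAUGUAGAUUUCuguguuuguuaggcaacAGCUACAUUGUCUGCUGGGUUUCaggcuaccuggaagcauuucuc
The Mir222 hairpin has 103 bases, with 19 between its arms, and the Mir221 hairpin has 109 bases, with 17 between its arms. In GRCr8 both lie on the plus strand of chromosome X, Mir222 first, with 458 bases between the hairpins. Their region overlaps 2 RefSeq long noncoding RNA genes, LOC120099382 and LOC120099384. The files name Rnor_6.0, another assembly, so no coordinates are given.

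The libraries held 10665718 to 18284905 miRNA counts. Levels are given as CPM, a library's counts scaled to a common total. With edgeR's quasi-likelihood test and Benjamini-Hochberg adjustment, 0 of the 469 miRNAs (0%) passed an adjusted p of 0.05 in any of the 3 comparisons. At an unadjusted p under 0.05, 24 miRNAs (5.12%) separated MK-801 from VEH, 39 (8.32%) separated MK-801+CLO from MK-801, and 70 (14.9%) separated MK-801+CLO from VEH. DESeq2 called 1, 2 and 11 miRNAs in these comparisons at an adjusted p of 0.05, and limma voom called 0 in each. Markers fixed for the tissue were present in all groups, with the 4 neuronal miRNAs summing to between 119416 and 147081 CPM in every library.

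MiR-221-3p held most of the cluster's counts, and its mean level was lowest after clozapine. In the VEH libraries it stood at 3608, 3533 and 4008 CPM in replicates 1, 2 and 3. In the MK-801 libraries it stood at 3904, 3256 and 3320 CPM. In the MK-801+CLO libraries it stood at 3146, 2819 and 2452 CPM. All 3 MK-801+CLO libraries lay below all 3 VEH libraries and, more narrowly, below all 3 MK-801 libraries, while VEH and MK-801 overlapped. Group means were 3716 ± 255 CPM in VEH, 3493 ± 357 CPM in MK-801 and 2806 ± 347 CPM in MK-801+CLO (SD, n = 3). It ranked 33rd of the 633 miRNAs by mean level in VEH, 35th in MK-801 and 40th in MK-801+CLO. Each library's value rests on 30070 to 73281 counts, so that 95% Wilson intervals span 0.723% to 1.13% of the value on either side. No 2 of the 9 intervals overlap, though those of MK-801 replicates 2 and 3 nearly touch, the lower ending at 3283 CPM and the higher starting at 3291 CPM. Such intervals cover counting error only.

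The model's log2 fold change of miR-221-3p was -0.35 ± 0.12 for MK-801+CLO against VEH (SE), or 0.79 times the VEH level. Relative to MK-801 it was -0.28 ± 0.11 (SE), and MK-801 itself stood at -0.06 ± 0.11 relative to VEH (SE). The first 2 exceed their SE, and the last is smaller than its SE. This is no test, since the cluster was proposed with the first of these differences in view. Without MK-801 replicate 1 the value relative to MK-801 was -0.18. The sign of the value for MK-801 against VEH turned to 0.02 without MK-801 replicate 2 and to 0.03 with upper-quartile factors, another way to scale libraries. The comparisons share libraries, so these values are not independent of each other. Over all 469 miRNAs the median log2 fold changes were 0.003, -0.004 and -0.018 in the same order. The model's scaling is built to bring them near 0, so they are no check on it. With upper-quartile factors these medians were -0.020, -0.116 and 0.074.

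The separation from MK-801 depends on how libraries are scaled. TMM scaling, which corrects totals so that most miRNAs show no change, put MK-801 replicate 2 at 3088 CPM and MK-801+CLO replicate 1 at 3117 CPM, so that these groups overlap. The gap to VEH remained, with MK-801+CLO at 2560 to 3117 CPM and VEH at 3428 to 3939 CPM. Of all 469 miRNAs, 54 (11.5%) had every MK-801+CLO library below every VEH library in CPM, and 40 (8.53%) did after TMM scaling. For MK-801+CLO below MK-801 these were 32 (6.82%) and 21 (4.48%). A miRNA with this order of libraries was thus not rare in the table, and miR-221-3p was 1 of the 3 modelled members to show it.

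**Figure D1:**
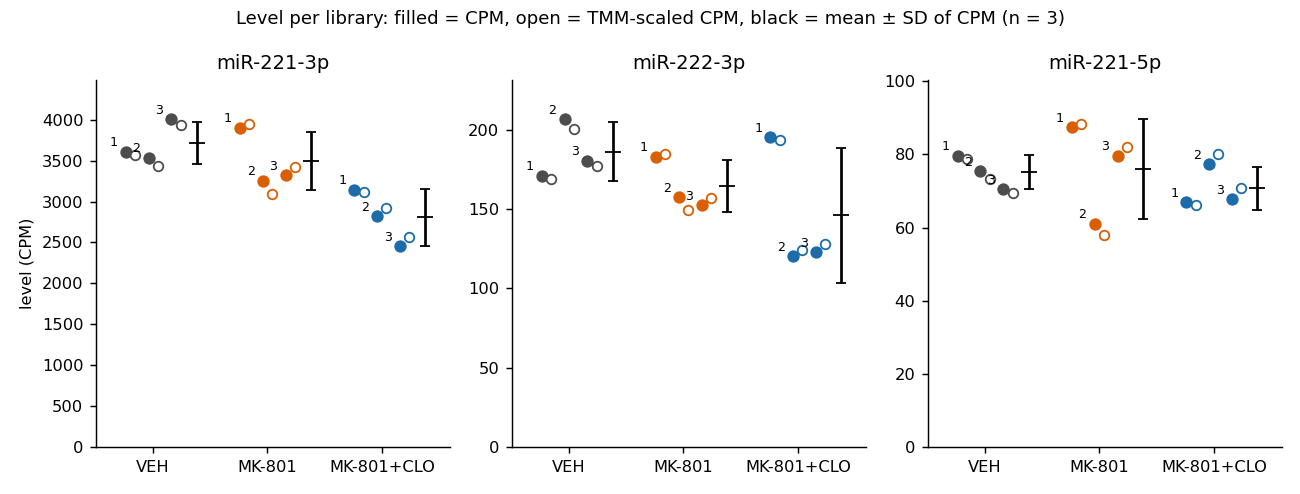
Level of miR-221-3p, miR-222-3p and miR-221-5p in each library (CPM, linear axes from 0), by group. Numbers mark replicates, filled points are CPM, open points are TMM-scaled CPM, and black bars are the mean ± SD of CPM (n = 3). The MK-801+CLO libraries of miR-221-3p sit at 2452 to 3146 CPM, below all VEH libraries, whereas replicate 1 of MK-801+CLO lies among the VEH libraries for miR-222-3p.

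MiR-222-3p, which carries the same seed, was far less abundant and parted within the clozapine group. Its levels were 171, 207 and 180 CPM in VEH replicates 1, 2 and 3, and with MK-801 alone 183, 157 and 152 CPM. In MK-801+CLO they were 195, 120 and 123 CPM. Replicates 2 and 3 of MK-801+CLO were the lowest of all 9 libraries, and replicate 1 was the second highest, so the group overlapped with both others. Group means were 186 ± 18.5 CPM in VEH, 164 ± 16.4 CPM in MK-801 and 146 ± 42.7 CPM in MK-801+CLO (SD, n = 3). The coefficient of variation was 29.2% in MK-801+CLO, against 9.95% in VEH and 9.99% in MK-801. Counts of 1281 to 3300 per library give 95% Wilson intervals of 3.41% to 5.48% of the value on either side, so counting error does not reach the gap between replicate 1 and the other two.

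The mean order of miR-222-3p, VEH above MK-801 above MK-801+CLO, was that of miR-221-3p, but neighbours in it overlapped. Its log2 fold change in MK-801+CLO was -0.29 ± 0.17 relative to VEH and -0.14 ± 0.17 relative to MK-801, and in MK-801 it was -0.16 ± 0.17 relative to VEH (SE). The last 2 are smaller than their SE. Without MK-801+CLO replicate 1 the value against VEH was -0.53 and that against MK-801 was -0.37. Without replicate 2 of that group they were -0.21 and -0.03, and without replicate 3 they were -0.23 and -0.05. For MK-801 against VEH it was -0.25 without MK-801 replicate 1 and -0.08 without VEH replicate 2. A single library thus moves the size of these differences by more than 1.5 times, and all these values stay below 0.

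MiR-221-5p, the strand opposite miR-221-3p in the same hairpin, did not have its order of groups. It stood at 79.6, 75.5 and 70.6 CPM in VEH replicates 1, 2 and 3, and in the MK-801 group at 87.5, 61.0 and 79.7 CPM. In MK-801+CLO it stood at 66.9, 77.4 and 67.8 CPM. The highest and the lowest of the 9 values both belonged to MK-801 libraries, and all groups overlapped. Means were 75.2 ± 4.54 CPM, 76.1 ± 13.6 CPM and 70.7 ± 5.79 CPM in VEH, MK-801 and MK-801+CLO (SD, n = 3). Log2 fold changes in MK-801+CLO were -0.03 ± 0.16 relative to VEH and -0.07 ± 0.16 relative to MK-801, and in MK-801 the value was 0.04 ± 0.16 relative to VEH (SE), each smaller than its SE. With 825 to 1329 counts per library, 95% Wilson intervals span 5.38% to 6.83% of the value on either side.

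MiR-222-5p was close to undetected. It had 2 counts in all 9 libraries together, 1 in VEH replicate 3 and 1 in MK-801+CLO replicate 3. The other libraries had 0 counts, and 0 counts leave room for a level of 0.176 to 0.281 CPM, which is 3 counts in these libraries. No fold change is given for it, since no library reached 3 counts. Within the Mir222 hairpin the 3p strand held 21750 counts over the 9 libraries, so nearly all counts of the hairpin came from that arm.

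**Figure D2:**
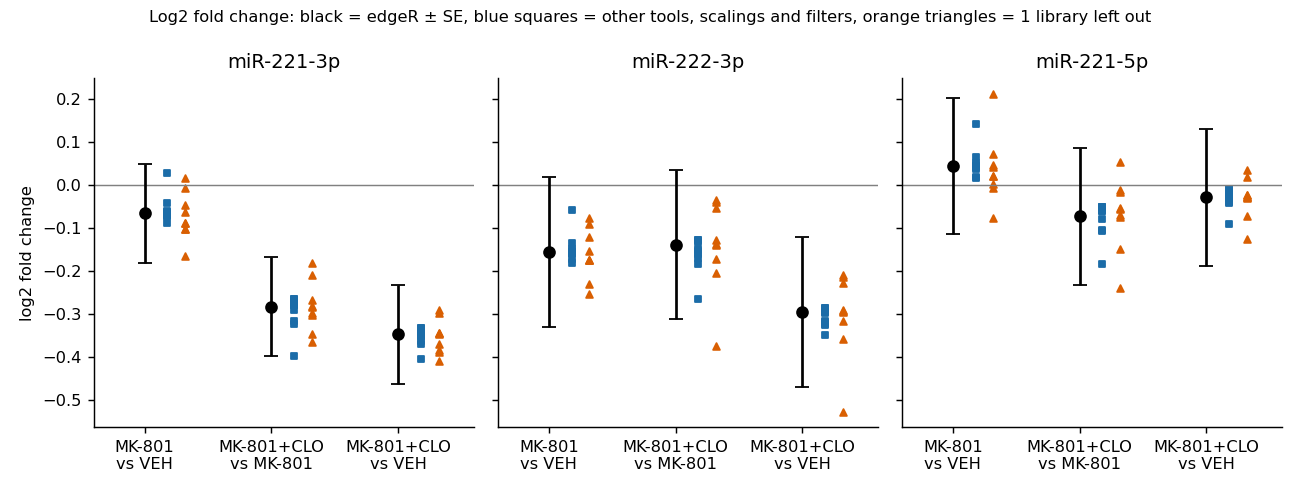
Log2 fold change of each modelled member in the 3 comparisons. Black points are edgeR values ± SE, blue squares are other tools, scalings and filters, and orange triangles are fits with 1 library left out. For MK-801+CLO against VEH every value lies below 0 for miR-221-3p and miR-222-3p, while miR-221-5p lies around 0.

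Ratios between members within a library do not depend on scaling and remove any change the members share. For every 100 counts of miR-221-3p there were 4.74, 5.85 and 4.50 counts of miR-222-3p in VEH replicates 1, 2 and 3. The MK-801 group had 4.69, 4.83 and 4.59, and MK-801+CLO had 6.21, 4.26 and 5.01. MiR-221-3p therefore held almost all of the counts with the shared seed in every library, which need not equal its share in the tissue. The MK-801 libraries were nearly alike, at 4.70 ± 0.123 (SD, n = 3), and the highest and the lowest ratio both came from MK-801+CLO. Means were 5.03 ± 0.720 in VEH and 5.16 ± 0.983 in MK-801+CLO (SD, n = 3). The log2 difference in this ratio between MK-801+CLO and VEH was 0.03 ± 0.20 (SE), smaller than its SE, which does not show that the strands changed alike. Since both ratios are set against miR-221-3p, whose levels were in view when the cluster was proposed, they too are given without a p-value.

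The arm ratio of Mir221 had its highest values after clozapine. For every 100 counts of miR-221-3p there were 2.21, 2.14 and 1.76 counts of miR-221-5p in VEH replicates 1, 2 and 3, and in the MK-801 group 2.24, 1.87 and 2.40. In MK-801+CLO there were 2.13, 2.74 and 2.77. Replicates 2 and 3 of MK-801+CLO exceeded all other libraries, whereas replicate 1 lay within the range of VEH and MK-801. Group means were 2.03 ± 0.240, 2.17 ± 0.270 and 2.55 ± 0.363 (SD, n = 3). The log2 difference was 0.32 ± 0.16 for MK-801+CLO against VEH and 0.23 ± 0.16 against MK-801 (SE). Against VEH the log2 fold change of miR-221-5p itself was -0.03, and that of miR-221-3p was -0.35. The difference in the ratio is thus nearly that of miR-221-3p with its sign turned, and adds nothing independent to it.

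**Figure D3:**
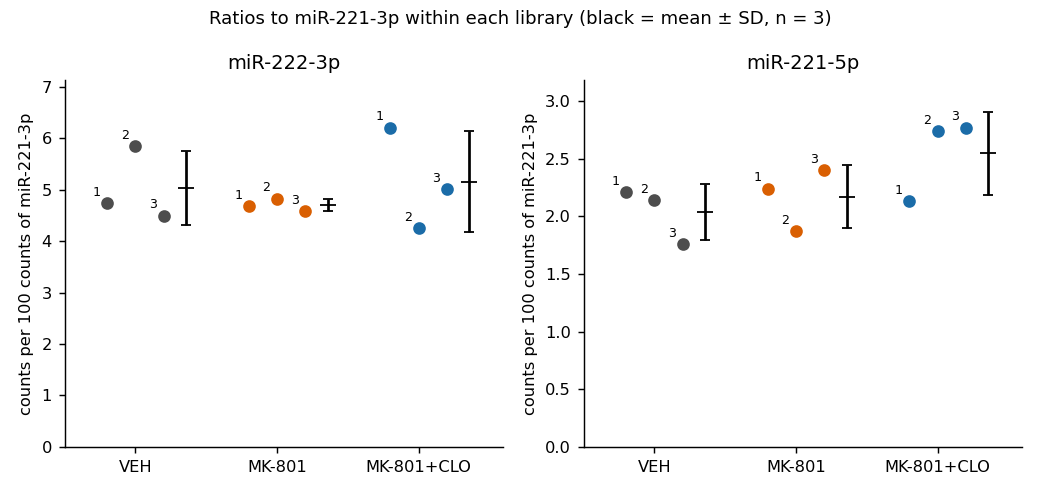
Counts of miR-222-3p (left) and miR-221-5p (right) per 100 counts of miR-221-3p in each library, on linear axes from 0, by group. Numbers mark replicates and black bars are the mean ± SD (n = 3). MK-801+CLO replicates 2 and 3 have the highest arm ratio, 2.74 and 2.77, and replicate 1, at 2.13, lies among the other groups.

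Together the 4 members took 0.386%, 0.382% and 0.426% of all miRNA counts in VEH replicates 1, 2 and 3, and in the MK-801 group 0.417%, 0.347% and 0.355%. They took 0.341%, 0.302% and 0.264% in MK-801+CLO, below every library of the other groups, with counting error as small as that of miR-221-3p. This sum is nearly miR-221-3p alone and adds nothing independent to it. Like the CPM of miR-221-3p, it parts from MK-801 only narrowly, at 0.341% against 0.347%, and TMM scaling removed that gap for miR-221-3p. In CPM 32 of all 469 miRNAs (6.82%) had every MK-801+CLO library below every MK-801 library, and 54 (11.5%) below every VEH library. As a description over the 9 libraries, which share their totals and group differences, the log2 levels of miR-221-3p and miR-222-3p had a Pearson r of 0.77, and of 0.65 after group means were removed. MiR-221-3p and miR-221-5p, which come from 1 hairpin, had r = 0.39 and r = 0.29.

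Since the pair is known from vessels, it was set beside 15 miRNAs with roles in vascular growth and remodelling. This list was chosen with earlier results of these data known. Most of its members lay on the other side of 0. In MK-801+CLO against VEH 12 of the 15 were above 0 and 3 below, with a median log2 fold change of 0.22, against 0.003 for all 469 miRNAs, of which 235 were above 0. Upper-quartile scaling and library totals each left 11 of 15 above 0, and 0 of the 15 passed the adjusted threshold in edgeR. MiR-126a-3p, the defining miRNA of endothelium, was at 863 ± 58.8 CPM in VEH, 835 ± 23.4 CPM in MK-801 and 1005 ± 65.6 CPM in MK-801+CLO (SD, n = 3). MiR-143-3p of smooth muscle was at 17775 ± 1634 CPM, 17344 ± 444 CPM and 21311 ± 1822 CPM in the same groups. MiR-145-5p of the same muscle cluster, at -0.21 ± 0.25 (log2 fold change ± SE), lay on the side of miR-221-3p. The endothelial markers, both of them arms of miR-126a, summed to 5340 to 5675 CPM in VEH and 5986 to 6903 CPM in MK-801+CLO. In MK-801 they summed to 5635 to 6313 CPM, which overlaps both other groups. A link between this sum and the level of miR-221-3p was not tested. In MK-801 against VEH 9 of the 15 were above 0, beside 218 of all 469. With upper-quartile factors these were 12 of 15 and 303 of 469, and the median of all miRNAs moved from -0.018 to 0.074. In MK-801+CLO against MK-801 11 of the 15 were above 0, beside 229 of all 469. With upper-quartile factors these were 9 of 15 and 138 of 469, and the median of all miRNAs moved from -0.004 to -0.116.

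In bulk tissue, fewer cells of a type and less of a miRNA per cell cannot be told apart. The marker list whose median lay on the side of miR-221-3p in MK-801+CLO against VEH was that of choroid plexus and ependyma. Of its members 6 of 7 were below VEH in MK-801+CLO, beside 234 of all 469 miRNAs. In MK-801 all 7 of 7 were below VEH, beside 251 of all 469. The summed level of this list was 3984 to 12394 CPM in VEH, 3647 to 4495 CPM in MK-801 and 2562 to 3855 CPM in MK-801+CLO. No member was at 0 in any group. The 12394 CPM belonged to 1 VEH library, and the next highest held 5800 CPM. The part of this list in the level of miR-221-3p was not tested. Of the other lists for MK-801+CLO against VEH, 2 of 2 endothelial, 2 of 3 smooth muscle and pericyte, 3 of 4 red blood cell, 4 of 5 leukocyte, 2 of 3 reactive glia, 3 of 4 neuronal and 3 of 3 oligodendrocyte miRNAs were above 0. In that comparison 235 of all 469 miRNAs were above 0. With RLE factors the reactive glia count was 3 of 3, beside 242 of 469. The neuronal miRNA below 0 was miR-9a-5p, at -0.07 ± 0.09 (log2 fold change ± SE), which held most of the neuronal sum. That sum was 126573 to 132563 CPM in VEH and 119416 to 137360 CPM in MK-801+CLO, so these groups overlapped.

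**Figure D4:**
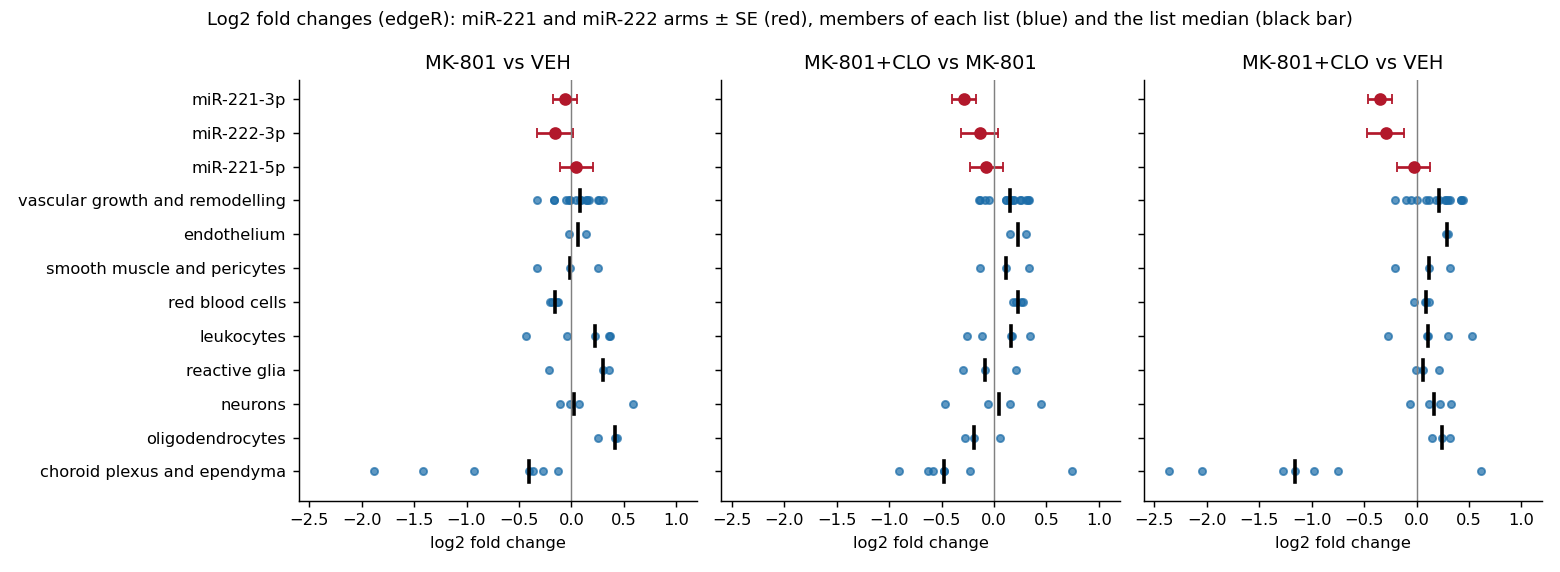
Log2 fold changes of the modelled arms of miR-221 and miR-222 (red, ± SE) and of the miRNAs in the vascular and cell type lists (blue), with each list's median as a black bar, in the 3 comparisons. For MK-801+CLO against VEH the vascular list has a median of 0.22 and the choroid plexus and ependyma list one of -1.16, against -0.35 for miR-221-3p.

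Chromosome X of GRCr8 carries 87 further listed miRNAs, 50 of them modelled. In MK-801+CLO against MK-801, 36 of these 50 were below 0 and 14 above, with a median log2 fold change of -0.07, against 240 of 469 below 0 overall. With upper-quartile factors 45 of 50 were below 0 in this comparison, where 331 of all 469 were as well. In MK-801+CLO against VEH 29 of 50 were below 0, with a median of -0.04, beside 234 of all 469. With library totals these were 35 of 50 and 277 of 469. In MK-801 against VEH 25 of 50 were below 0, beside 251 of all 469. With upper-quartile factors these were 20 of 50 and 166 of 469. Of the 50, 46 are annotated on no other chromosome, and the others held most of the counts: the summed level of the 87 had a median of 42087 CPM in VEH, and that of the 83 found on X alone had one of 9810 CPM. Of the 46, 33 were below 0 in MK-801+CLO against MK-801, 28 in MK-801+CLO against VEH and 24 in MK-801 against VEH. The list's 0 calls at an adjusted p of 0.05 in edgeR match the 0% of the whole table. The list is not separate from that of choroid plexus and ependyma. Its lowest log2 fold changes against VEH, -2.36 in MK-801+CLO and -1.89 in MK-801, are those of miR-1298, which is in both lists.

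The miRNAs whose levels followed the pair most closely were found among 330 others with a mean of at least 10 CPM, by Pearson r of log2(CPM + 1) with the mean of miR-221-3p and miR-222-3p over the 9 libraries. They were miR-185-5p (r = 0.94), miR-9a-5p (0.94), miR-324-5p (0.93), miR-3589 (0.90) and miR-672-5p (0.90), against a median r of 0.16. MiR-185-5p went from 156 ± 2.33 CPM in VEH to 147 ± 7.68 CPM in MK-801 and 133 ± 17.2 CPM in MK-801+CLO (SD, n = 3). MiR-9a-5p, one of the most abundant miRNAs of neural tissue, went from 87783 ± 663 CPM to 85562 ± 5508 CPM and 80446 ± 8557 CPM. MiR-3589 and miR-672-5p are, like the pair, annotated on chromosome X, as are 50 of the 469 modelled miRNAs besides the members. The share on X among the 330 was not counted, and a link by locus was not tested. Farthest from the pair were miR-151-5p (r = -0.93), miR-3586-3p (-0.91) and miR-181a-5p (-0.89), which were highest in MK-801+CLO replicates 2 and 3, where the pair was lowest. MiR-181a-5p, among the most abundant miRNAs of the table, had a VEH mean of 114212 CPM and an MK-801+CLO mean of 138321 CPM, and all values share the library totals. With TMM scaling 4 of the 5 most alike stayed among the first 5, and miR-9a-5p dropped to rank 9 (r = 0.84). After group means were removed 4 of the 5 again stayed, and miR-672-5p dropped to rank 13 (r = 0.81). The low end held less well: 1 of the 3 least alike, miR-181a-5p, stayed among the last 3 in each case. MiR-3586-3p stood at rank 322 of 330 with TMM scaling and at rank 326 after group means were removed, and miR-151-5p at rank 327 in both.

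**Figure D5:**
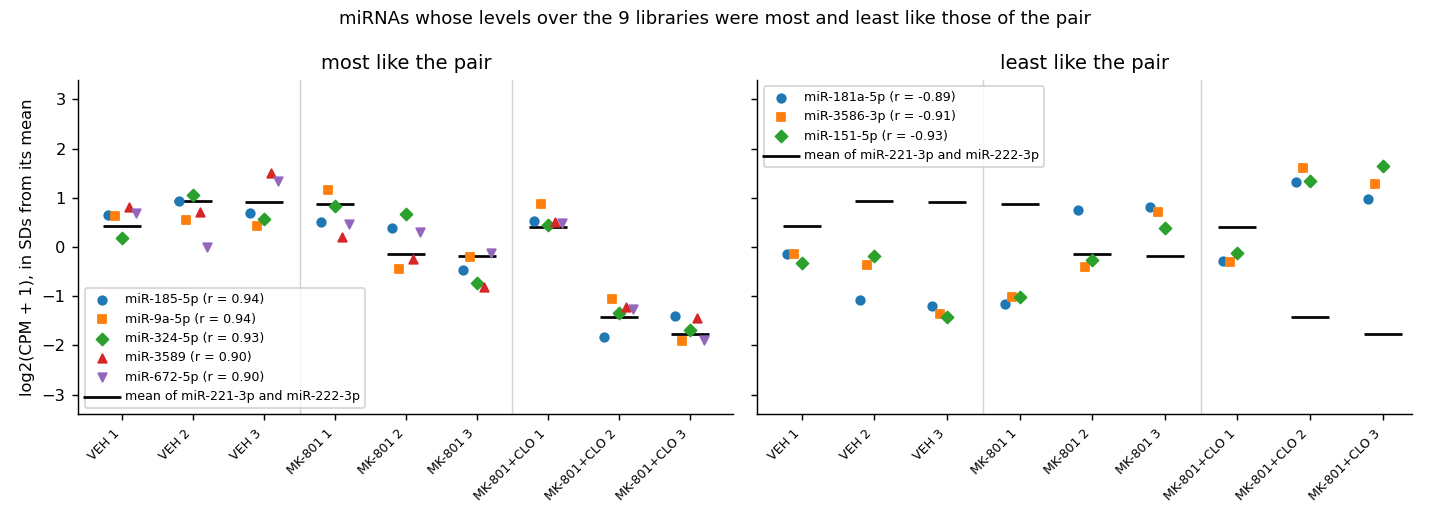
Level of the 5 miRNAs most like the pair (left) and the 3 least like it (right) in each library, as log2(CPM + 1) in SDs from the miRNA's own mean over 9 libraries. Black bars are the mean of miR-221-3p and miR-222-3p on the same scale. The pair and the 5 alike miRNAs are lowest in MK-801+CLO replicates 2 and 3. In MK-801+CLO replicate 1 the pair lies higher, just below the lowest VEH library.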

How the data were processed

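The authors deposited whole-number counts for each mature miRNA in each library, beside columns that the file headers call TPM. The deposited TPM values are CPM: they hold no length term and differ from counts over library totals by at most 0.000473%. The submitters' processing notes list cutadapt 1.14, Bowtie, DESeq and the build Rnor_6.0, with no role for any. The treatment of reads that fit more than 1 miRNA is not given in the sources cited. The table had 21 blank lines and 1 name split over lines, which was rejoined. The members, lists and comparisons were chosen with earlier results of these data known.

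Counts of all 9 libraries were fitted in edgeR 4.0.16 (R 4.3.3; filterByExpr, TMM, glmQLFit and glmQLFTest, 1 mean per group). SE is the absolute log2 fold change over the square root of F, and the common biological coefficient of variation was 17.2%. A permutation test planned for the ratios between members is not reported, since their levels were known when they were chosen. The code was tested on simulated counts. Alternatives were DESeq2 1.42.0, voom in limma 3.58.1, RLE, upper-quartile and no factors, other filters, a block for the replicate number, fits on the compared groups alone, and each library left out. Named miRNAs were the members, the 5 most and 3 least like the pair, and the fixed lists. Wilson intervals are from SciPy 1.17.1. Of 633 listed miRNAs, 571 matched RefSeq by name. No 2 libraries of a group agreed within sampling noise.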

Additional observations from a re-analysis of the deposited data

How the results depend on the processing

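MiR-221-3p stayed below VEH in MK-801+CLO in all 9 other settings of tool, scaling and filter, from -0.41 with library totals to -0.33 with DESeq2, and from -0.41 to -0.29 with 1 library left out. Against MK-801 it ran from -0.40 to -0.27, and from -0.36 to -0.18 with 1 library left out. MiR-221-5p took both signs in every comparison with 1 library left out, from -0.13 to 0.04 for MK-801+CLO against VEH, -0.24 to 0.05 against MK-801, and -0.08 to 0.21 for MK-801 against VEH. Over these alternatives no member's log2 fold change moved by more than the SD between libraries. With 3 libraries a group, leaving out 1 can hardly move a value that far, so this does not show stability. With 1 library left out, miR-222-3p in MK-801+CLO against MK-801 ran from -0.37 to -0.03. The counts of miRNAs called moved from 0 to 1, 2 and 11 with DESeq2 (MK-801 against VEH, MK-801+CLO against MK-801, MK-801+CLO against VEH). With 1 library left out they ran from 0 to 1, 0 to 2 and 0 to 7, the highest without MK-801 replicate 2 and, for the other comparisons, without MK-801+CLO replicate 2. The cause was not tested. The split at an unadjusted p under 0.05 moved with scaling, from 35 higher and 35 lower to 17 and 46 with library totals when MK-801+CLO was set against VEH. With upper-quartile factors it moved from 22 and 17 to 4 and 44 when it was set against MK-801, and from 14 and 10 to 28 and 6 for MK-801 against VEH.

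Replicate numbers did not pair the libraries: deviations of same-numbered libraries correlated at -0.582 to 0.312, and 2 of 9 libraries correlated best with their own number. With the replicate number as a block the log2 fold change of miR-221-3p was -0.35, -0.28 and -0.07 for MK-801+CLO against VEH, MK-801+CLO against MK-801 and MK-801 against VEH. The block left 0 calls in each comparison. With 3 libraries a group the SE of miR-222-3p, 0.17, is of the order of its differences between groups.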
